A study of Homo sapiens with 24 samples.

Results

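A set of 10 genes that interferon switches on was followed across every library: IFI6, IFI27, IFI35, IFI44, IFI44L, IFITM1, IFITM2, IFITM3, BST2 and ISG20. They were taken by name as 10 of the 28277 genes listed in each of 2 count tables, and each was described in 8 conditions with 3 biological replicates per condition. The libraries came from PEO1 and PEO4, a pair of ovarian carcinoma cell lines in which PEO4 is the platinum-resistant partner. Gene expression was measured by poly(A) RNA-seq in 24 libraries.

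The first table held untreated PEO1 A cells, whose genotype label is WT (BRCA2-), and untreated PEO4 A cells, labelled WT (BRCA2+), both grown with added sodium pyruvate. The second table held PEO1 B cells, labelled BRCA2+ because a reversion of the mutation had restored BRCA2, and PEO4 B cells, labelled WT (BRCA2+). Both B lines were left untreated or exposed to 5 µM pyridostatin (PDS), a small molecule that binds and stabilizes DNA G-quadruplexes (G4s), for 2 or 6 h. No vehicle control was labelled, so the treated cells were compared with untreated cells. The tables were normalized separately, and no test was made between them. Because RNA was taken from bulk cultures, fewer expressing cells and less RNA per cell cannot be told apart.

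Type I and type III interferons act through receptors and the kinases JAK1 and TYK2 to activate a transcription factor complex containing IRF9 that binds interferon-stimulated response elements (ISREs) in promoters. The genes downstream encode much of the antiviral state of a cell, and many tumour cell lines keep part of this programme on without added interferon. IFITM1, IFITM2 and IFITM3 encode membrane proteins that hinder the fusion of enveloped viruses, BST2 encodes tetherin, which holds budding virions at the cell surface, and ISG20 encodes an exonuclease that degrades RNA. IFI6 encodes a small membrane protein with antiviral and anti-apoptotic activity, and IFI27 is its close relative. IFI44 and IFI44L are neighbouring relatives that are widely used to score interferon responses, and IFI35 encodes a leucine-zipper protein that partners with NMI.

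The letters that carry the ISRE core were looked for in promoters from RefSeq (GRCh38.p14), each running from 250 bases before to 50 bases after a start site. A promoter was listed for 9 of the 10 genes, with 2 start sites each for IFI27 and IFI44, and IFITM2 had no entry. The core was searched on both strands as GAAA followed, after 2 further bases, by GAAA, and it was found in the promoters of 8 of these 9 genes, against 3.57% of all 35116 promoters. IFI35 was the gene without a match. The stretches that hold the core are shown 5′ to 3′ on the gene's strand with the core in capitals, and where the core lies on the opposite strand the capitals read TTTC at both ends. The capitals are alike because the search required it, and no link between these stretches and the levels below was tested.
BST2, chr19:17405735-17405770, minus strand: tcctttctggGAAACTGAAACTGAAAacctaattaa
IFITM1, chr11:313990-314043, plus strand: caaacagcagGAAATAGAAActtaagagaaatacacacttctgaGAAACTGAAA
IFITM3, chr11:320876-320922, minus strand: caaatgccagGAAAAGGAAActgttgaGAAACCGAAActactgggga
IFI6, chr1:27672266-27672317, minus strand: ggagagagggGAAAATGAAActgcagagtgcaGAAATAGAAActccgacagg
IFI44, chr1:78649761-78649788, plus strand: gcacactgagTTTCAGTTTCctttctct
IFI44L, chr1:78620365-78620394, plus strand: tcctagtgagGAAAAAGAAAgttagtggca
ISG20, chr15:88638937-88638966, plus strand: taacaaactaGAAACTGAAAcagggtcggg
IFI27, chr14:94110618-94110660, plus strand: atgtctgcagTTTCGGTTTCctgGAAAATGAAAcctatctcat

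In BST2 the core began 130 bases before the start site, and its 2 copies overlapped by 4 bases. IFI6 and IFI44L each held a further match upstream of the one shown, in IFI44L with the same 10 bases on either side. IFITM1 and IFITM3 each held 2 cores, the first beginning 40 and 52 bases before the start site. The palindromic STAT dimer motif TTCNNNGAA, read on both strands, lay in the promoters of BST2, IFI27, IFI35 and IFITM1, that is 4 of 9 genes against 7.66% of all promoters. A G4 sequence pattern, 4 runs of at least 3 G with loops of 1 to 7 bases, was matched on either strand in the promoters of ISG20 and IFI27, 2 of 9 genes against 25% of all promoters. A match describes letters only, and binding was not measured in these libraries.

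The A libraries held 32528913 to 63882077 counts, the untreated B libraries 18699929 to 22375644, and the PDS-treated B libraries 33260167 to 43713947. Ribosomal RNA genes took 0.217% to 0.474% of the counts in the untreated B libraries and 0.0164% to 0.0369% in the treated ones, so treatment and whatever else separated these preparations cannot be told apart in any comparison with untreated B cells. The comparison of 6 h with 2 h of PDS did not cross that divide. BRCA2 RNA averaged 8.24 ± 0.297 CPM, that is counts scaled to a library of 1000000 (SD, n = 3), in PEO1 A and 13.5 ± 2.44 in PEO4 A. On the separate scale of the B libraries it averaged 8.25 ± 0.492 in untreated PEO1 B and 8.17 ± 0.987 in untreated PEO4 B. The genotypes are those of the labels, and counts per gene do not show a mutation. All 10 ovarian carcinoma and epithelial markers listed, PAX8, WT1 and EPCAM among them, were detected in every library, whereas 3 of the 6 leukocyte markers, PTPRC and CD3E among them, had at most 3 counts in any library. CD68 and CD14 were present, and the 6 leukocyte markers summed to 28.5 to 84.0 CPM.

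To ask how the resistant line differed from its sensitive partner before any treatment, PEO4 A was first compared with PEO1 A. All 9 genes with enough reads to test were higher in PEO4 A, by 2.27-fold for ISG20 up to 275-fold for BST2. A gene was called changed when its adjusted p from edgeR was below 0.05 and its absolute log2 fold change (FC) exceeded 1, and by this rule 12.6% of the 15882 genes tested were higher in PEO4 A. The median log2 FC over the 9 genes was 5.23, against -0.01 over all genes tested.

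BST2 stood at 3.10, 1.82 and 1.77 CPM in the 3 PEO1 A libraries and at 525, 620 and 699 CPM in PEO4 A (log2 FC 8.10 ± 0.23 SE, adjusted p = 4.76e-09). IFITM1, the family member found mostly at the cell surface, stood at 4.79, 3.04 and 2.52 CPM in PEO1 A and at 691, 574 and 536 CPM in PEO4 A (log2 FC 7.44 ± 0.25, adjusted p = 4.72e-08). IFI6 stood at 14.4, 10.7 and 10.3 CPM in PEO1 A and at 801, 965 and 1067 CPM in PEO4 A (log2 FC 6.32 ± 0.17, adjusted p = 2.31e-10). In each of these genes, every PEO4 A library lay far above every PEO1 A library. How many of all genes separated without overlap was not counted, here or in the comparisons below. In the A pair 61.6% of all genes passed the adjusted p alone.

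IFITM2 and IFITM3, which act mainly in endosomal membranes, differed by log2 FCs of 5.41 ± 0.19 and 3.14 ± 0.10. The neighbours IFI44L and IFI44 differed by 5.23 ± 0.19 and 3.71 ± 0.07, and IFI35 by 3.00 ± 0.11. ISG20 differed least, from 5.98 to 8.31 CPM in PEO1 A and from 11.9 to 18.8 CPM in PEO4 A (log2 FC 1.18 ± 0.19, adjusted p = 0.000173), and its groups did not overlap either. Per kilobase of transcript, IFI6 (1163 CPM per kb), IFITM3 (1034) and IFITM1 (899) had the highest mean levels in PEO4 A, while IFITM3 led in PEO1 A with 118 CPM per kb.

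IFI27 was the exception. It had 2 counts in 1 PEO4 A library and 1 count in 1 untreated PEO4 B library, and 0 in the other 22 libraries. It was therefore not tested in any comparison. The limit that a count of 0 allows, 3 counts in a library, corresponded to 0.0462 to 0.0918 CPM in the A libraries and to 0.0715 to 0.151 CPM in the B libraries, for counting error only.

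**Figure D1:**
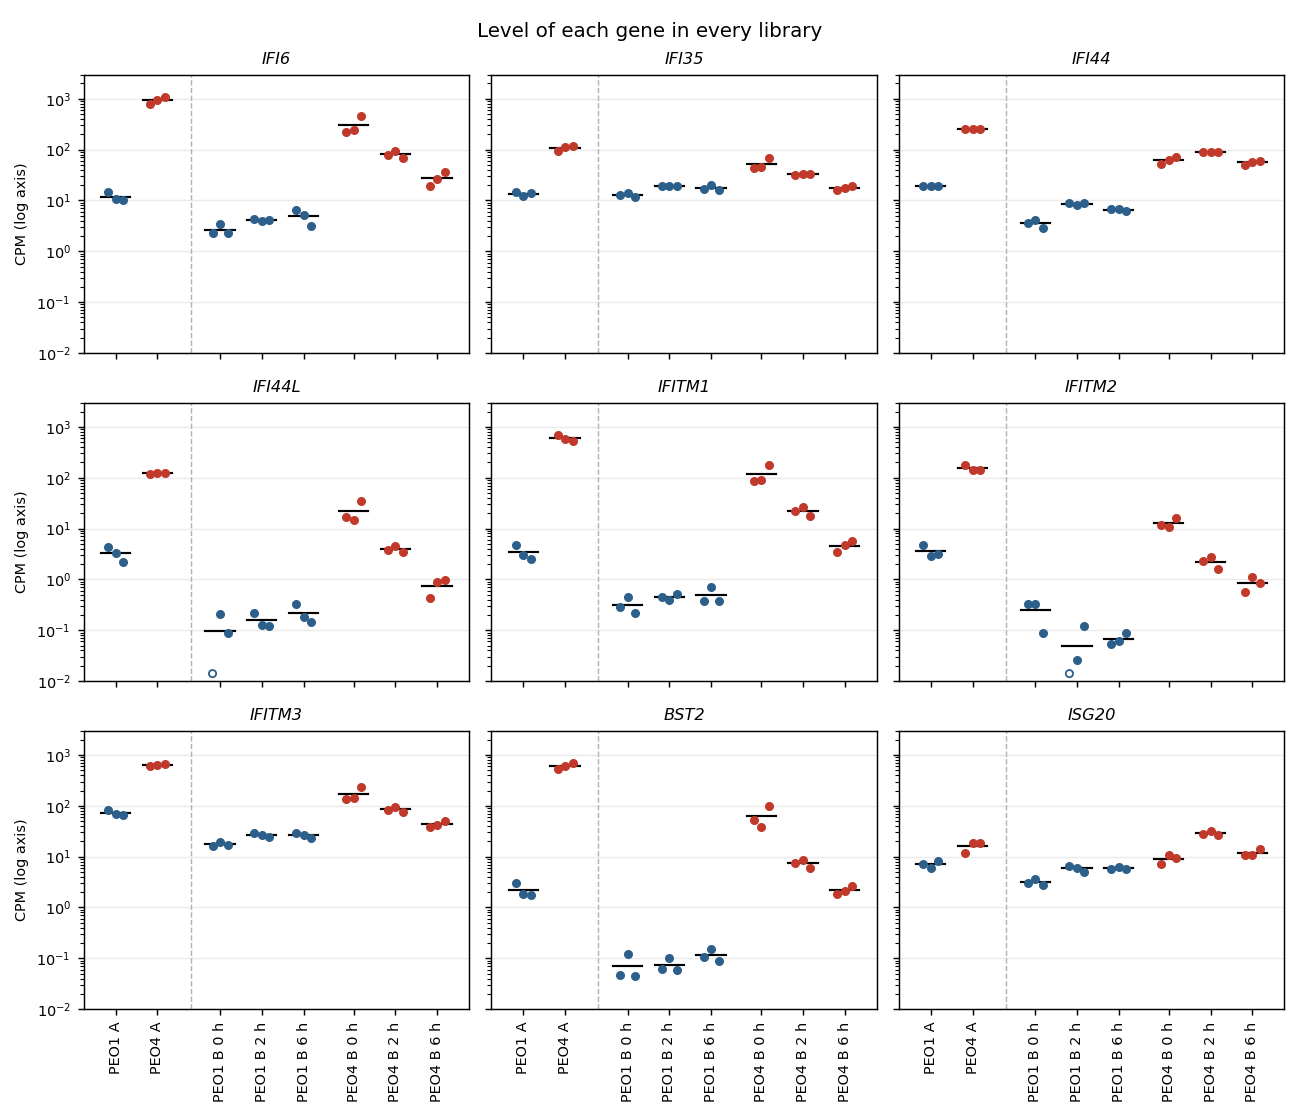
CPM on a log axis for 9 genes (panels) in the 24 libraries, grouped by condition; blue points are PEO1 libraries, red points PEO4 libraries, black lines condition means, and open points at the foot of a panel libraries with 0 counts. The dashed line divides the separately normalized tables. The untreated PEO4 points lie above the untreated PEO1 points in every panel, and in PEO4 B the levels of IFI6, IFI44L, IFITM1, IFITM2 and BST2 step down from 0 to 2 to 6 h, while IFI44 and ISG20 are highest at 2 h.

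The same question was asked in the B pair, in which both lines carry functional BRCA2. All 9 tested genes were again higher in PEO4 B, where 12.2% of the 17020 genes tested were called higher. IFI6 had 47, 82 and 51 counts in untreated PEO1 B and 5172, 4808 and 10109 in untreated PEO4 B, or 2.63 ± 0.66 against 310.4 ± 134.8 CPM (SD, n = 3). This is a log2 FC of 6.87 ± 0.42 (adjusted p = 6.59e-09), and the groups did not overlap. The median log2 FC of the 9 genes was 5.65, against -0.0011 over all genes. That median was the value of IFITM2, which like IFI44L and BST2 passed the filter on low counts only through PEO4 B. A tested difference in these genes could only have been upward, so the count and the median were partly set by the filter. The other tested genes had log2 FCs from 1.51 for ISG20 to 8.51 for IFITM1.

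The genes BST2, IFI44L, IFITM2 and IFITM1 had very few reads in PEO1 B. IFI44L, IFITM2 and BST2 passed the filter on low counts only through PEO4 B, so a tested difference in them could only have been in this direction. BST2 had 1, 3 and 1 counts in untreated PEO1 B and 1242, 756 and 2164 in PEO4 B, a CPM ratio of 873 with an exact 95% counting interval of 374 to 2689. IFI44L had 0, 5 and 2 counts against 385, 292 and 748, a ratio of 213 (103 to 532). IFITM2 had 7, 8 and 2 counts against 271, 211 and 346, a ratio of 51.1 (31.7 to 88.1). IFITM1 had 6, 11 and 5 counts against 2030, 1792 and 3911, a ratio of 368.5 (243 to 588). These intervals cover counting error only. Leaving out untreated PEO1 B replicate 2, which held most of the few reads, raised the fitted log2 FC from 7.68 to 8.79 for IFI44L and from 9.68 to 10.3 for BST2.

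The better covered genes differed less. IFI44 went from 3.53 ± 0.62 CPM in PEO1 B to 63.1 ± 9.88 CPM in PEO4 B (log2 FC 4.16 ± 0.12, adjusted p = 2.36e-18), IFITM3 from 17.4 ± 1.55 to 172 ± 54.6 CPM (log2 FC 3.31 ± 0.21) and IFI35 from 12.8 ± 1.16 to 52.6 ± 13.8 CPM (log2 FC 2.04 ± 0.15). ISG20 was again the closest between the lines, at 3.07, 3.59 and 2.72 CPM against 7.01, 10.6 and 9.35 CPM (log2 FC 1.51 ± 0.16, adjusted p = 1.4e-08). In each of these genes the lowest PEO4 B library exceeded the highest PEO1 B library. How many of all genes separated in this way was not counted, and 68.6% of all genes passed the adjusted p alone.

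Markers of other cell types also differed between the lines. Over all genes tested, 12.6% were called higher and 13.1% lower in PEO4 A, and 12.2% higher and 12.6% lower in PEO4 B. Of the 5 fibroblast markers, 1 was called higher and 2 lower in PEO4 A than in PEO1 A, and 2 higher in PEO4 B than in PEO1 B. Of the 3 endothelial markers, PECAM1 (log2 FC 2.48 ± 0.61) and VWF (1.73 ± 0.55) were higher in PEO4 B and none was called by edgeR in the A pair. The monocyte marker CD14 was lower in both pairs (-2.37 ± 0.25 and -1.36 ± 0.18). The part of these markers in the differences above was not tested.

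One untreated PEO4 B library stood apart in these genes. The level in replicate 3 was 2.2 times the mean of replicates 1 and 2 for IFI44L, 2.17 times for BST2, 2.03 times for IFITM1 and 2.0 times for IFI6, but 1.06 times for ISG20 and 1.26 times for IFI44. Over the 14186 genes with at least 1 CPM in this condition the median of that ratio was 0.991, and 3.11% of genes exceeded 1.5. Without replicate 3 all 9 genes were still called higher in untreated PEO4 B. For IFI44L, IFITM2 and BST2 the filter on low counts allowed only this direction. The log2 FCs were then 9.21 for BST2, 8.08 for IFITM1, 7.20 for IFI44L, 6.45 for IFI6 and 5.46 for IFITM2. They were 4.04 for IFI44, 3.01 for IFITM3, 1.8 for IFI35 and 1.48 for ISG20. The fitted PDS responses of the 9 genes in PEO4 B are also given with and without replicate 3.

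To follow these genes under PDS in the resistant line, treated PEO4 B was compared with untreated PEO4 B. After 2 h, 6 of the 9 genes fell (IFI6, IFI44L, IFITM1, IFITM2, IFITM3 and BST2), where 11% of all genes tested fell, and ISG20 rose, where 6.4% rose. After 6 h, 7 fell, IFI35 having joined them, where 16.3% of all genes fell, and ISG20 and IFI44 were not called. The median log2 FC of the 9 genes was -1.95 at 2 h and -3.52 at 6 h, against 0.00 and -0.03 over all genes.

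BST2 fell from 53.8, 38.0 and 99.7 CPM to 7.36, 8.75 and 6.12 CPM at 2 h and to 1.86, 2.08 and 2.60 CPM at 6 h. The log2 FCs were -3.11 ± 0.28 and -4.88 ± 0.33 (adjusted p = 3.53e-07 and 1.06e-08), and no library of one time point overlapped those of another. Without untreated replicate 3 they were -2.63 and -4.40. IFITM1 fell from 87.9, 90.0 and 180.2 CPM to 21.7, 26.1 and 17.6 CPM at 2 h and to 3.53, 4.73 and 5.63 CPM at 6 h (log2 FC -2.46 ± 0.26 and -4.70 ± 0.30, or -2.03 and -4.27 without that library). Its 3 groups likewise did not overlap.

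IFITM2 fell with a log2 FC of -2.52 ± 0.22 at 2 h, and at 6 h the log2 FC was -3.92 ± 0.25, reaching 24 to 37 counts a library at 6 h. Without untreated replicate 3 these values were -2.32 and -3.72. IFITM3, by contrast, stayed well covered, with 137, 145 and 235 CPM before PDS, 83.9, 96.8 and 77.0 CPM at 2 h and 38.1, 42.7 and 50.5 CPM at 6 h. Its log2 FC at 2 h was -1.0046 ± 0.18 (adjusted p = 0.000248), at the edge of the threshold. The call was lost without untreated replicate 3 (-0.71), without 2 h replicate 1 (-0.99) and without 2 h replicate 3 (-0.93). At 6 h the log2 FC was -1.98 ± 0.19 (adjusted p = 4.37e-07), or -1.68 without untreated replicate 3. The IFITM genes have near-identical coding sequences, and how reads that fit more than 1 of them were counted is not given in the sources used here.

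IFI6 fell from 224, 241.5 and 466 CPM to 77.7, 94.6 and 68.3 CPM at 2 h and to 19.1, 26.6 and 36.1 CPM at 6 h (log2 FC -1.95 ± 0.29 and -3.52 ± 0.31, adjusted p = 5.6e-05 and 3.37e-07). Without untreated replicate 3 the values were -1.53 and -3.10. IFI35 fell at 6 h, to 16.2, 17.2 and 19.6 CPM from 43.0, 46.3 and 68.4 CPM (log2 FC -1.58 ± 0.14, adjusted p = 1.25e-08), while its log2 FC of -0.68 ± 0.13 at 2 h did not reach the fold threshold. Without untreated replicate 3 the values for IFI35 were -1.34 at 6 h and -0.44 at 2 h. The groups at 0, 2 and 6 h did not overlap for either gene.

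The neighbours IFI44 and IFI44L parted after PDS. They lie on the same strand of chromosome 1 with 3650 bases between them. IFI44L fell from 16.7, 14.7 and 34.5 CPM to 3.75, 4.44 and 3.46 CPM at 2 h and to 0.429, 0.885 and 0.958 CPM at 6 h (log2 FC -2.50 ± 0.29 and -4.89 ± 0.36, or -2.01 and -4.40 without untreated replicate 3). IFI44 stood at 53.3, 63.1 and 73.0 CPM before PDS, at 89.1, 91.5 and 88.2 CPM at 2 h and at 50.4, 58.3 and 61.0 CPM at 6 h. Its log2 FC was 0.51 ± 0.09 at 2 h (adjusted p = 2.92e-05, under the fold threshold) and -0.16 ± 0.09 at 6 h (adjusted p = 0.12), and the levels at 0 and 6 h overlapped. Without untreated replicate 3 the values for IFI44 were 0.63 and -0.035.

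The CPM ratio of IFI44 to IFI44L was 2.12 to 4.3 in the untreated PEO4 B libraries, 20.6 to 25.5 at 2 h and 63.7 to 118 at 6 h. In PEO4 A it was 1.97 to 2.08. The shift came almost wholly from IFI44L, whose level moved while that of IFI44 stayed between 50.4 and 91.5 CPM.

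ISG20 went the other way from most of the genes at 2 h. It stood at 7.01, 10.6 and 9.35 CPM before PDS and at 28.6, 31.5 and 26.8 CPM at 2 h (log2 FC 1.69 ± 0.13, adjusted p = 4.82e-11), with no overlap. At 6 h it was back at 10.7, 11.02 and 14.1 CPM (log2 FC 0.41 ± 0.13 against untreated, not called). Without untreated replicate 3 the log2 FCs of ISG20 were 1.73 and 0.45.

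**Figure D2:**
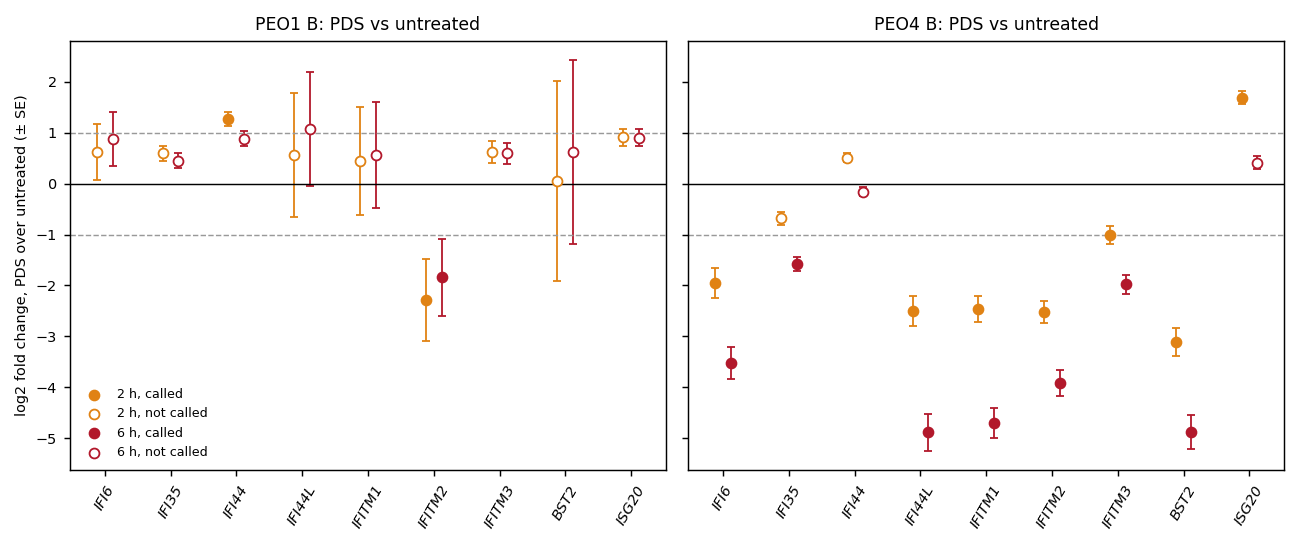
log2 fold change (± SE) of the 9 tested genes after 2 h (orange) and 6 h (red) of PDS against untreated cells, in PEO1 B (left) and PEO4 B (right); filled points passed the adjusted p and fold thresholds, and dashed lines mark a log2 fold change of 1 in either direction. In PEO4 B, 7 genes lie below -1 at 6 h and ISG20 lies at 1.69 at 2 h, while in PEO1 B only IFI44 at 2 h (1.28) and IFITM2 at both times are filled.

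Between 2 and 6 h of PDS, where depth and ribosomal RNA did not separate the groups, 6 of the 9 genes were lower at 6 h than at 2 h in PEO4 B, against 9.71% of all genes tested. Of these, 5 had already fallen at 2 h, and the other was ISG20, which had risen at 2 h. The log2 FC was -2.39 ± 0.39 for IFI44L, -2.24 ± 0.30 for IFITM1, -1.77 ± 0.35 for BST2, -1.56 ± 0.30 for IFI6, -1.40 ± 0.28 for IFITM2 and -1.28 ± 0.12 for ISG20. IFITM3 (-0.97 ± 0.18), IFI35 (-0.90 ± 0.13) and IFI44 (-0.66 ± 0.09) passed the adjusted p but not the fold threshold, IFITM3 by a margin that leaving out replicate 3 at 2 h (-1.04) or 6 h (-1.08) removed. These values do not use the untreated libraries, except through the shared estimate of spread.

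Markers of other cell types were read in the same libraries. In PEO4 B the summed level of 5 fibroblast markers went from 29.7 to 31.0 CPM before PDS to 8.47 to 12.2 CPM at 2 h and 3.29 to 4.49 CPM at 6 h, carried by COL1A1 and COL1A2, while DCN and LUM had at most 8 counts in any PEO4 B library. The 3 endothelial markers summed to 1.31 to 2.72 CPM before PDS, 0.408 to 0.764 CPM at 2 h and 0.061 to 0.191 CPM at 6 h, with CDH5 at 0 throughout PEO4 B. The 6 leukocyte markers went from 33.8 to 57.1 CPM to 73.6 to 84.0 CPM at 2 h and 70.2 to 79.7 CPM at 6 h, most of it CD68, and CD14 rose at 2 h (log2 FC 1.57 ± 0.17). The 10 carcinoma and epithelial markers summed to 6780 to 8880 CPM before PDS, 6160 to 6710 CPM at 2 h and 7350 to 7490 CPM at 6 h. At 6 h 3 of these 10 had fallen, MUC16 (-3.40 ± 0.49) and MSLN (-2.29 ± 0.13) among them, and none rose. Over all genes 16.3% fell and 6.26% rose at 6 h. The part of these markers in the PDS results was not tested.

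In PEO1 B the response was small. At 2 h IFI44 rose, where 1.18% of all genes rose, from 3.55, 4.13 and 2.90 CPM to 8.81, 8.02 and 8.98 CPM (log2 FC 1.28 ± 0.14, adjusted p = 7.6e-08), and its groups did not overlap. By adjusted p alone 5 of 9 genes passed at 2 h and 5 of 9 at 6 h, against 52.6% and 53.0% of all genes. Beside IFI44 (0.88 ± 0.14 at 6 h) these were ISG20 (0.91 ± 0.16 at both times), IFITM3 (0.62 ± 0.21 and 0.60 ± 0.21), IFI35 (0.59 ± 0.15 and 0.45 ± 0.15) and IFITM2. Except for IFITM2, their log2 FCs were positive. Without PEO1 B untreated replicate 2, ISG20 passed the fold threshold at 2 h (1.04) and 6 h (1.04) and IFI44 at 6 h (1.03).

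IFITM2 was called lower in PEO1 B at both times, where 6.39% of all genes fell at 2 h and 6.83% at 6 h, on very few reads. It had 7, 8 and 2 counts before PDS, 0, 1 and 4 at 2 h and 2, 2 and 3 at 6 h, and the untreated CPM was 5.21 times that at 2 h (exact 95% counting interval 1.85 to 18.1) and 3.72 times that at 6 h (1.47 to 10.6). The groups overlapped at both comparisons. The fitted log2 FCs were -2.29 ± 0.81 (adjusted p = 0.0209) and -1.83 ± 0.76 (adjusted p = 0.0451). Leaving out untreated replicate 1 or 2, or 2 h replicate 1 or 2, ended the call at 2 h (adjusted p = 0.0744 to 0.098), and leaving out 2 h replicate 3 moved it to -3.80. At 6 h the call ended without untreated replicate 1 or 2 or without any 6 h library (adjusted p = 0.0661 to 0.173).

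IFI6, IFI44L, IFITM1 and BST2 had log2 FCs of 0.06 to 1.07 in PEO1 B after PDS, with SEs of 0.53 to 1.96, and none was called. IFI6 was better covered, with 47, 82 and 51 counts before PDS. Its mean level was 2.63 CPM before PDS, 4.10 CPM at 2 h and 4.87 CPM at 6 h, so no fall was seen in it. IFI44L, IFITM1 and BST2 had few reads. BST2, for instance, had 1, 3 and 1 counts before PDS, 2, 4 and 2 at 2 h and 4, 5 and 3 at 6 h. Falls of the size seen in PEO4 B could hardly have been measured in these 3 genes at this depth. Between 2 and 6 h none of the 9 genes was called in PEO1 B by edgeR or by DESeq2, against 0.17% of all genes. The number with an unadjusted p under 0.05 was 1, and by adjusted p alone IFI44 passed (log2 FC -0.40 ± 0.12, adjusted p = 0.0394), against 6.94%.

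Whether the 2 lines differed in their response was tested directly, as the PEO4 B response minus the PEO1 B response. IFI44L, IFITM2 and BST2 passed the filter on low counts only through PEO4 B, and they had too few reads in PEO1 B for a fall as large as that in PEO4 B to be measured, so they are set apart here. At 2 h the difference was called for 4 of the other 6 genes, all more negative in PEO4 B, where 4.92% of all genes were: IFI6 (-2.58 ± 0.60 on the log2 scale, adjusted p = 0.0048), IFITM1 (-2.90 ± 1.07, adjusted p = 0.0487), IFITM3 (-1.63 ± 0.28, adjusted p = 0.000422) and IFI35 (-1.27 ± 0.20, adjusted p = 7.14e-05). The call for IFITM1 was lost on leaving out any library of PEO1 B at 0 or 2 h or of PEO4 B at 2 h (adjusted p = 0.0528 to 0.116). IFITM1 had 6, 11 and 5 counts in untreated PEO1 B. A fall there as large as in PEO4 B could hardly have been measured. IFI44L (-3.06 ± 1.24, adjusted p = 0.0661) and BST2 (-3.17 ± 2.10, adjusted p = 0.264) missed the threshold at 2 h, and both passed it without PEO4 B untreated replicate 3 (adjusted p = 0.00781 and 0.0255), IFI44L also without replicate 1 or 2. DESeq2 called both at 2 h (adjusted p = 0.00186 for IFI44L and 0.00196 for BST2). Without that library the differences called at 2 h were -2.16 for IFI6, -2.48 for IFITM1, -1.34 for IFITM3 and -1.04 for IFI35.

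At 6 h the difference was called for 5 of the other 6 genes, where 9.34% of all genes were more negative in PEO4 B. It was -5.27 ± 1.09 for IFITM1, -4.40 ± 0.59 for IFI6, -2.58 ± 0.28 for IFITM3, -2.03 ± 0.20 for IFI35 and -1.04 ± 0.17 for IFI44, or -4.84, -3.98, -2.28, -1.79 and -0.92 without PEO4 B untreated replicate 3. For IFITM1 the value again rests on few PEO1 B reads, where a fall as large as in PEO4 B could hardly be measured. For IFI44L (-5.96 ± 1.18) and BST2 (-5.50 ± 1.94) the values rest on the few reads of PEO1 B. They were -5.47 and -5.03 without PEO4 B untreated replicate 3, and without untreated PEO1 B replicate 2 they were -7.07 and -6.15. The call for BST2 (adjusted p = 0.0321) was lost without PEO1 B untreated replicate 1 or 3 or any PEO1 B 6 h library (adjusted p = 0.0549 to 0.107), and that for IFI44 without PEO1 B untreated replicate 3 (-0.92), PEO4 B untreated replicate 3 (-0.92) or PEO4 B 6 h replicate 1 (-0.97). The differences for IFITM2 and ISG20 were -2.08 ± 0.98 (adjusted p = 0.0835) and -0.49 ± 0.21 (adjusted p = 0.0601), or -1.89 and -0.46 without PEO4 B untreated replicate 3, and DESeq2 called that for IFITM2 (adjusted p = 0.0178).

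The distance that PDS left between the lines differed from gene to gene. At 2 h of PDS, 8 of 9 genes were still higher in PEO4 B, where 13.9% of all genes were, and at 6 h 7 of 9, where 9.52% were. IFI44L, IFITM2 and BST2, counted here at both times, passed the filter on low counts only through PEO4 B. Their tested difference could only have been toward higher levels in PEO4 B. For BST2 the CPM ratio of PEO4 B to PEO1 B was 873 before PDS, 95.4 (95% counting interval 48.2 to 222) at 2 h and 18.7 (10.5 to 36.7) at 6 h. For IFITM1 it was 368.5, 48.7 (36.4 to 66.7) and 9.44 (7.05 to 12.9), and for IFI44L 213, 25.1 (15.3 to 44.3) and 3.30 (2.05 to 5.51).

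IFI35 met PEO1 B at 6 h, with 17.7 ± 1.72 CPM in PEO4 B and 17.5 ± 2.09 CPM in PEO1 B (log2 FC 0.01 ± 0.14, adjusted p = 0.955), and the libraries overlapped. IFITM3 remained apart by a log2 FC of 0.73 ± 0.19 (adjusted p = 0.00397), under the fold threshold. IFI44 kept most of its distance, with log2 FCs of 4.16 ± 0.12, 3.38 ± 0.10 and 3.11 ± 0.11 at 0, 2 and 6 h. ISG20 was the gene whose distance was widest at 2 h (2.29 ± 0.13).

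The call for ISG20 at 6 h (log2 FC 1.02 ± 0.13) was lost without PEO1 B 6 h replicate 3 (0.99) or PEO4 B 6 h replicate 3 (0.88). That for IFI44L at 6 h (log2 FC 1.72 ± 0.65, adjusted p = 0.0278) was lost without replicate 2 or 3 of either line at 6 h (adjusted p = 0.0763 to 0.0949). For IFITM2 the log2 FC was 5.65 ± 0.34 before PDS, 5.42 ± 0.48 at 2 h and 3.56 ± 0.54 at 6 h, and the value at 2 h was 6.93 without PEO1 B 2 h replicate 3.

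**Figure D3:**
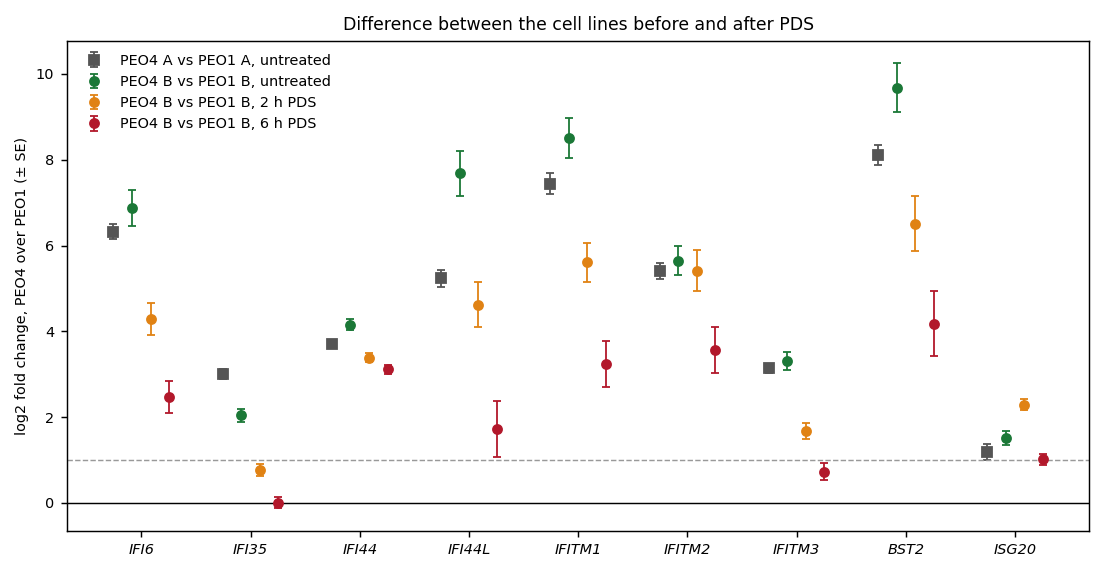
log2 fold change (± SE) of PEO4 over PEO1 for the 9 tested genes in the untreated A pair (grey squares) and in the B pair untreated (green), after 2 h (orange) and after 6 h (red) of PDS; the dashed line marks a log2 fold change of 1. The untreated values of both pairs lie above 1 for every gene, and at 6 h IFI35 lies at 0.01 while IFI44 lies at 3.11.

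Ordered by mean level in the B table, untreated PEO4 B was highest for 7 of the genes and PEO4 B at 2 h for IFI44 and ISG20. The 3 PEO1 B conditions were the lowest ranks for IFI6, IFI44, IFI44L, IFITM1, IFITM2, IFITM3, BST2 and ISG20, and all of these except IFI44 had neighbouring PEO1 B conditions whose libraries overlapped. For IFI35, PEO4 B at 6 h fell between PEO1 B at 2 h and at 6 h and overlapped both.

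Across the 6 conditions of the B table the mean log2 CPM spanned from 2.01 units for IFI35 to 8.81 for BST2. A small count was added to each library before this logarithm, which narrows the spans of genes with few reads such as BST2, IFI44L and IFITM2. The distances given next depend on it for these genes. Likeness of pattern was measured as the root mean square difference of centred mean log2 CPM over these 6 conditions, and it describes 6 points that share libraries. The closest members were IFITM1 and BST2 (0.323), IFI6 and IFI44L (0.376) and IFI35 and IFITM3 (0.496). The farthest were BST2 and ISG20 (2.79). On chromosome 11, IFITM1 and IFITM3 are transcribed towards each other with 4403 bases between them, and IFITM2 lies 643 bases from IFITM1 on the same strand.

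Among all other well expressed genes, the nearest to IFI35 was UBE2L6 (0.105), a conjugating enzyme for ISG15, followed by MAP3K8 (0.145). The nearest to IFI44 were OASL (0.228) and KRT17 (0.236), those to ISG20 HMGN5 (0.151) and ACOT13 (0.274), and those to IFITM3 HSPB8 (0.248) and CLU (0.282). IFI6 lay nearest to OAS2 (0.453), which makes the 2-5A activator of RNase L, and to WNT11 (0.541), and IFITM1 to WNT11 (0.588) and OAS2 (0.66). IFITM2 lay nearest to KCNK15-AS1 and WNT6 (both 0.449). IFI44L and BST2 lay farther from any other gene, with APCDD1 nearest to both (0.675 and 0.715), then ATP6V1B1 for IFI44L (0.727) and WNT11 for BST2 (0.765).

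The other genes of the pathway were read from lists. Of the 9 interferon genes listed, IFNB1 had no count in any library, and IFNL1 was the only one with enough reads to test in the B table. IFNL1, a type III interferon, averaged 0.246 CPM in PEO1 A and 4.29 CPM in PEO4 A (log2 FC 4.05 ± 0.39, adjusted p = 1.75e-06). It was also called higher in untreated PEO4 B (5.46 ± 0.53), on at most 2 counts a library in PEO1 B. There it passed the filter on low counts only through PEO4 B, so a tested difference could only have been in this direction. IFNL2, tested in the A table alone, had 0 counts in PEO1 A and 10 to 20 in PEO4 A, so its direction was fixed by the filter too. In PEO4 B IFNL1 had a log2 FC of -0.12 at 2 h of PDS, not called, and fell at 6 h (-1.46 ± 0.29).

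Of the 9 receptors and kinases, 1 was higher in PEO4 A (IFNAR1, log2 FC 1.0024 ± 0.08), where 12.6% of all genes were, and none was called by edgeR in the untreated B pair, where 5 of 9 had an unadjusted p under 0.05. In PEO4 B, 2 of 9 fell at each time, where 11% and 16.3% of all genes fell, so these counts lie near the share over all genes. They were IFNGR2 (-1.93 ± 0.24 at 2 h, -1.81 ± 0.24 at 6 h) with IFNLR1 (-1.06 ± 0.10) at 2 h and IL10RB (-1.05 ± 0.14) at 6 h. IFNGR2, a subunit of the interferon gamma receptor, also fell in PEO1 B (-1.61 ± 0.24 at 2 h, -1.35 ± 0.23 at 6 h).

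Among the 8 transcription factors listed, 5 were higher in PEO4 A, where 12.6% of all genes were. In untreated PEO4 B 4 were higher, where 12.2% of all genes were, and IRF5 was lower (log2 FC -1.13 ± 0.09), where 12.6% were. IRF7, which amplifies interferon production, was higher in both pairs (log2 FC 2.74 ± 0.21 and 1.85 ± 0.17). IRF9, the DNA-binding partner in the ISRE complex, was also higher in both (1.42 ± 0.09 and 2.83 ± 0.10). After PDS 2 of the 8 fell in PEO4 B at 2 h, where 11% of all genes fell, and 5 at 6 h, where 16.3% fell. IRF7 fell at both times (-1.98 ± 0.17 and -2.72 ± 0.18), and IRF9 fell at 6 h (-2.40 ± 0.10). In PEO1 B IRF7 was the 1 that fell at 6 h (-1.01 ± 0.20), where 6.83% of all genes did.

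Of 24 other effectors, all 24 were higher in PEO4 in both untreated pairs, where 12.6% and 12.2% of all genes were, with median log2 FCs of 2.83 and 2.89. OAS2 (7.10 ± 0.15) and MX1 (6.35 ± 0.11), an antiviral GTPase, led in the A pair, and OAS2 (6.59 ± 0.41) and XAF1 (5.45 ± 0.39) in the B pair. In PEO4 B 10 of 24 fell at 2 h, where 11% of all genes fell, led by MX2 (-2.78 ± 0.37) and OAS3 (-2.19 ± 0.21), and none rose. At 6 h 19 of 24 fell, where 16.3% of all genes did, led by XAF1 (-3.85 ± 0.31) and MX2 (-3.45 ± 0.40), and none rose. The medians were -0.66 and -1.35, against -1.95 and -3.52 for the 9 genes.

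In PEO1 B 1 of the 24 effectors rose and 1 fell at 2 h, where 1.18% and 6.39% of all genes did, OASL (1.08 ± 0.17) and MX2 (-4.06 ± 0.90), and 2 fell at 6 h, where 6.83% did, MX2 (-2.69 ± 0.74) and XAF1 (-2.24 ± 0.83). MX2 had 13 to 18 counts a library in untreated PEO1 B and 0 to 5 after PDS. The response of the lines differed for 7 of 24 effectors at 2 h, against 4.92% of all genes, led by MX1 (-2.55 ± 0.38) and EPSTI1 (-2.23 ± 0.74), and for 17 of 24 at 6 h, against 9.34%, led by MX1 (-3.77 ± 0.40) and OAS1 (-3.26 ± 0.33), all more negative in PEO4 B.

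Of the 5 negative regulators, USP18, which removes ISG15 and dampens the receptor and also stands among the 24 effectors, was higher in PEO4 in both untreated pairs (log2 FC 2.86 ± 0.09 and 1.56 ± 0.12) and SOCS3 was lower (-1.63 ± 0.21 and -1.39 ± 0.15). In all, 1 of the 5 was higher and 1 lower in PEO4 A, and 2 were higher and 1 lower in PEO4 B. Over all genes 12.6% and 12.2% were higher and 13.1% and 12.6% lower. USP18 was the 1 that fell in PEO4 B after PDS (-1.14 ± 0.11 at 2 h, -1.68 ± 0.12 at 6 h). Over all genes 11% fell at 2 h and 16.3% at 6 h, so this count lies near the share over all genes. Of 7 relatives of the 10 genes by name or family, 4 could be tested, and none was called by edgeR in PEO4 B at 2 h (0 of 4 with an unadjusted p under 0.05) while IFITM10 (-1.92 ± 0.40) and IFI16 (-1.69 ± 0.11), a nuclear DNA sensor, fell at 6 h, where 16.3% of all genes fell. IFI16 was higher in PEO4 in both untreated pairs (1.89 ± 0.10 and 1.69 ± 0.12), where 12.6% and 12.2% of all genes were, and IFITM10 in the B pair (1.10 ± 0.39).

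**Figure D4:**
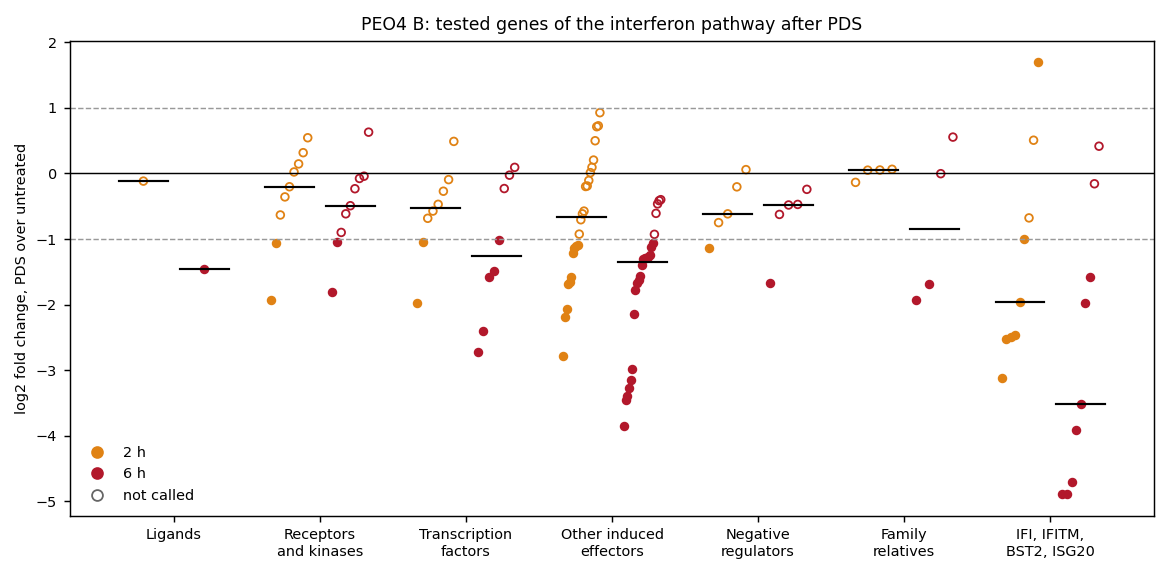
log2 fold change after 2 h (orange) and 6 h (red) of PDS against untreated PEO4 B for every tested gene of 6 lists of the interferon pathway and for the 9 genes described here (right); filled points passed both thresholds, open points did not, and black lines are medians. The medians of the effectors lie at -0.66 and -1.35, and those of the 9 genes at -1.95 and -3.52.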

How the data were processed

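Poly(A) RNA from 24 libraries was counted per gene by the authors. Per the labels, reads were checked with FastQC, trimmed with fastp, aligned to hg38 with STAR and counted with featureCounts; versions, annotation and strand setting are not given in the sources used here. The deposited values are raw counts, one table for 6 A libraries and one for 18 B libraries. All sample columns were used, and 2 lines of the A table and 1 of the B table without readable counts were left out. Members and gene lists were chosen with earlier results of these data known.

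Each table was fitted alone with edgeR 4.0.16 in R 4.3.3, using filterByExpr (minimum count 10), TMM scaling and the robust quasi-likelihood test with 1 term per condition, and p-values were adjusted by Benjamini-Hochberg over all genes tested (15882 and 17020). A call required adjusted p below 0.05 and an absolute log2 FC above 1. SE is the absolute log2 FC divided by the square root of F. CPM uses TMM-scaled library sizes, and CPM per kb divides by the GENCODE canonical transcript length. Low-count ratios carry exact 95% intervals from pooled counts. The labels state biological replicates. On simulated data the fit recovered 199 of 200 changed genes in the A design and 198 of 200 in the B design, with 2 and 0 false calls. The changed genes were drawn from well covered genes at a true absolute log2 FC of 2, so this does not describe genes with few reads. Named genes were all 10 members, the 2 called genes of largest change per list and comparison, and the 2 genes of nearest pattern for members spanning over 2 log2 units. Alternatives were other scalings, no filter, DESeq2 1.42.0, fits on the compared groups alone, a replicate block and leaving out each library. Some items of the lists are not reported here.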

Additional observations from a re-analysis of the deposited data

Results flagged for a closer look

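The responses of PEO4 B and PEO1 B to PDS differed by a test of the difference itself for 4 genes at 2 h and 7 at 6 h, and each value is the PEO4 B response minus the PEO1 B response on the log2 scale. At 2 h it was -2.58 for IFI6, -1.27 for IFI35, -2.90 for IFITM1 and -1.63 for IFITM3. At 6 h it was -4.40 for IFI6, -2.03 for IFI35, -1.04 for IFI44, -5.96 for IFI44L, -5.27 for IFITM1, -2.58 for IFITM3 and -5.50 for BST2. Over all genes the response was called more negative in PEO4 B for 4.92% at 2 h and 9.34% at 6 h. The calls for IFITM1 at 2 h and for IFI44 and BST2 at 6 h were lost when certain single libraries were left out. IFI44L and BST2 had 7 and 5 counts over the 3 untreated PEO1 B libraries and passed the filter on low counts only through PEO4 B, so their difference could hardly have gone the other way. IFITM1 had 22 counts in those libraries, so a fall as large as in PEO4 B could hardly have been measured there. In both lines the untreated libraries were shallower than the treated ones and held more ribosomal RNA. With 3 libraries per condition, single libraries were not tested as outliers.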

How the results depend on the processing

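Of 179 recomputed counts of called genes, 165 stayed within 1.5 times the value reported, and of 1494 recomputed log2 FCs 1413 kept their direction and their side of the thresholds, 45 lost the call, 16 gained it and 20 turned sign. The counts that moved were all in PEO1 B. At 2 h of PDS the count was 5 by adjusted p alone, 1 when only the compared groups were fitted and 1 to 3 when single libraries were left out. At 6 h it was 5 by adjusted p alone, 0 with a replicate block, 0 with the compared groups alone and 0 to 2 without single libraries, and from 2 to 6 h it was 1 by adjusted p alone. All values that turned sign were uncalled. IFI35 between the lines at 6 h was -0.0017 with library totals, -0.0063 with upper-quartile scaling and -0.0686 to 0.1087 without single libraries. BST2 in PEO1 B at 2 h was -0.0813, -0.0157 and -0.2423 to 0.7092 under the same settings. Without single libraries the change from 2 to 6 h in PEO1 B ranged from -0.2155 to 0.2768 for IFITM1, -0.0412 to 1.9732 for IFITM2, -0.0901 to 0.0512 for IFITM3 and -0.1009 to 0.0764 for ISG20, and the difference of responses at 2 h from -0.7339 to 1.2803 for IFITM2. The cause was not tested.

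Replicate numbers are shared by the conditions, but same-numbered libraries did not deviate together (correlations of -0.043 to 0.023 over 3 A pairs and -0.158 to 0.134 over 45 B pairs), so they share only a number. With the block, IFITM2 in PEO1 B at 6 h (adjusted p = 0.0573) and IFITM3 in PEO4 B at 2 h (log2 FC -0.99) lost their calls, and the difference of responses at 2 h for IFI44L gained one (-3.00, adjusted p = 0.0497). Leaving low-count genes unfiltered ended the calls of IFI44L between the lines at 6 h (adjusted p = 0.0576), IFITM3 in PEO4 B at 2 h (log2 FC -0.98), and the differences of response for IFITM1 at 2 h (adjusted p = 0.0676) and BST2 at 6 h (0.0505). Fitting only the compared groups ended these last calls too (0.077 and 0.083), and library totals and upper-quartile scaling that of IFITM1 (0.0553 and 0.054). DESeq2 called 3 more differences of response, those of IFI44L and BST2 at 2 h and IFITM2 at 6 h. With library totals the median of all genes shifted by -0.15 in PEO1 B at either time, -0.13 in PEO4 B at 2 h and -0.16 at 6 h, where 698 genes rose and 3334 fell in place of 1066 and 2782. Upper-quartile scaling shifted the last by -0.11. Genes with under 10 counts a library in PEO1 B limit every ratio that uses them.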
